A study of Mus musculus with 62 samples.

Results

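The insulin-like growth factor (IGF) and insulin signalling genes were followed through melanoma cachexia, the wasting of muscle and fat that some tumours bring on, in mouse gastrocnemius, the large calf muscle. The set was chosen by gene symbol and held 10 of the 47643 symbols in the table: the ligands Igf1 and Igf2, the receptors Igf1r and Insr, the adaptor Irs1, and the binding proteins Igfbp3, Igfbp4, Igfbp5, Igfbp6 and Igfbp7. All 10 passed the filter on low values, as did 12364 genes in all. Female mice were injected at 2 months of age with melanoma cells that cause cachexia (CAC), with melanoma cells that do not (NCAC), or mock injected (Con), and their muscle was collected after 2, 4, 6 or 8 weeks. Each group had 5 libraries at each week, except for 7 in CAC at 8 weeks, which made 62 libraries of poly(A) RNA. The series design gives the mice as NCI Ath/nude, a strain without a normal thymus, and the sample labels give C57BL/6J, so the strain behind all groups is uncertain here. No allele or treatment other than the injected cells is labelled, and the labels do not name the melanoma lines. A further label gives the cachectic cells as the treatment of all 62 libraries, controls included, and no group was taken from it.

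IGF-1 and insulin act on muscle through related tyrosine kinase receptors, which recruit adaptors such as IRS1 and pass the signal to PI3K, AKT and mTOR. In muscle this pathway favours protein synthesis and glucose uptake, and AKT keeps the FoxO transcription factors, which drive atrophy genes, out of the nucleus. IGF binding proteins hold IGFs outside the cell and can limit or prolong their action, and IGFBP7 binds IGFs only weakly. Muscle fibres, interstitial fibroblasts, vessel cells and macrophages all lie within whole muscle tissue, and each can express members of this set.

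Libraries held 39.58 to 48.35 M reads by estimate (M for 1e6). The gene of the set with the fewest reads in a library, Igf1, had an estimated 230.0 to 1991 reads. Genes encoded in mitochondrial DNA held on average 24.1% of the TPM (a level per length of transcript, scaled to the same total in every library) in CAC, 32.2% in NCAC and 33.5% in Con at 8 weeks. All other genes therefore shared a larger part of the same total in CAC. How far this accounts for the scaling shifts given next was not tested. Median-ratio scaling, which divides each library by its typical gene's ratio to the average library, lowered the median log2 change between CAC and Con by 0.0855, 0.18, 0.29 and 0.37 at 2, 4, 6 and 8 weeks. Changes between CAC and Con are therefore given below as deposited and, where the call differs, after this scaling. Between CAC and NCAC some calls that differ are given by gene name only. In CAC, replicate 2 at 4 weeks, replicate 1 at 6 weeks and replicate 6 at 8 weeks lay farthest from the other libraries of their groups, with root mean square log2 differences of 0.552, 0.457 and 0.564, against group medians of 0.308, 0.309 and 0.38. At 8 weeks CAC replicates 3 and 4 followed at 0.522 and 0.459. Replicate 3 had the lowest Insr, Igf1r and Igfbp3 of that group, and replicate 6 the highest. The muscle fibre markers summed to 121600 to 169100 TPM in CAC, 154200 to 189600 TPM in NCAC and 142100 to 164200 TPM in Con at 8 weeks, with 0 of the 8 markers absent in any of these groups. The 5 melanocyte and melanoma markers summed to at most 1.23 TPM in CAC, 0.484 TPM in NCAC and 0.351 TPM in Con at that week. The medians were 0.288, 0.133 and 0.225 TPM, and the highest sum at any week, 1.59 TPM, was in Con at 6 weeks.

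Between CAC and Con, 7 of the 10 genes rose at 8 weeks (Igf1, Igf2, Igf1r, Igfbp3, Igfbp4, Igfbp7 and Insr) and 1 fell (Irs1), by limma with an adjusted p under 0.05. Over all genes 65.3% rose and 5.55% fell, so the share of the set that rose was close to that of all genes. The median log2 change was 0.89 for the set and 0.36 for all genes tested. After median-ratio scaling 6 of the 10 rose, against 22.9% of all genes, and 3 fell (Igfbp5, Igfbp6 and Irs1), against 22.3% of all genes. Igf2 was the gene that lost its call, with a change of 0.34 as deposited and -0.03 after scaling. At 6 weeks 6 genes rose and 2 fell as deposited, against 51.8% and 5.41% of all genes, and 5 rose and 3 fell after scaling, against 14.4% and 17.2%. At 4 weeks 5 rose and 0 fell as deposited, against 23% and 2.38% of all genes, and 2 rose and 0 fell after scaling, against 7.43% and 7.8%. At 2 weeks 0 of the 10 were called as deposited, against 0.267% of all genes higher and 0.0162% lower, and 0 after scaling, against 0.226% and 0.0647%. At that week 3 of the 10 had an unadjusted p under 0.05, and array weights called 1.

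**Figure D1:**
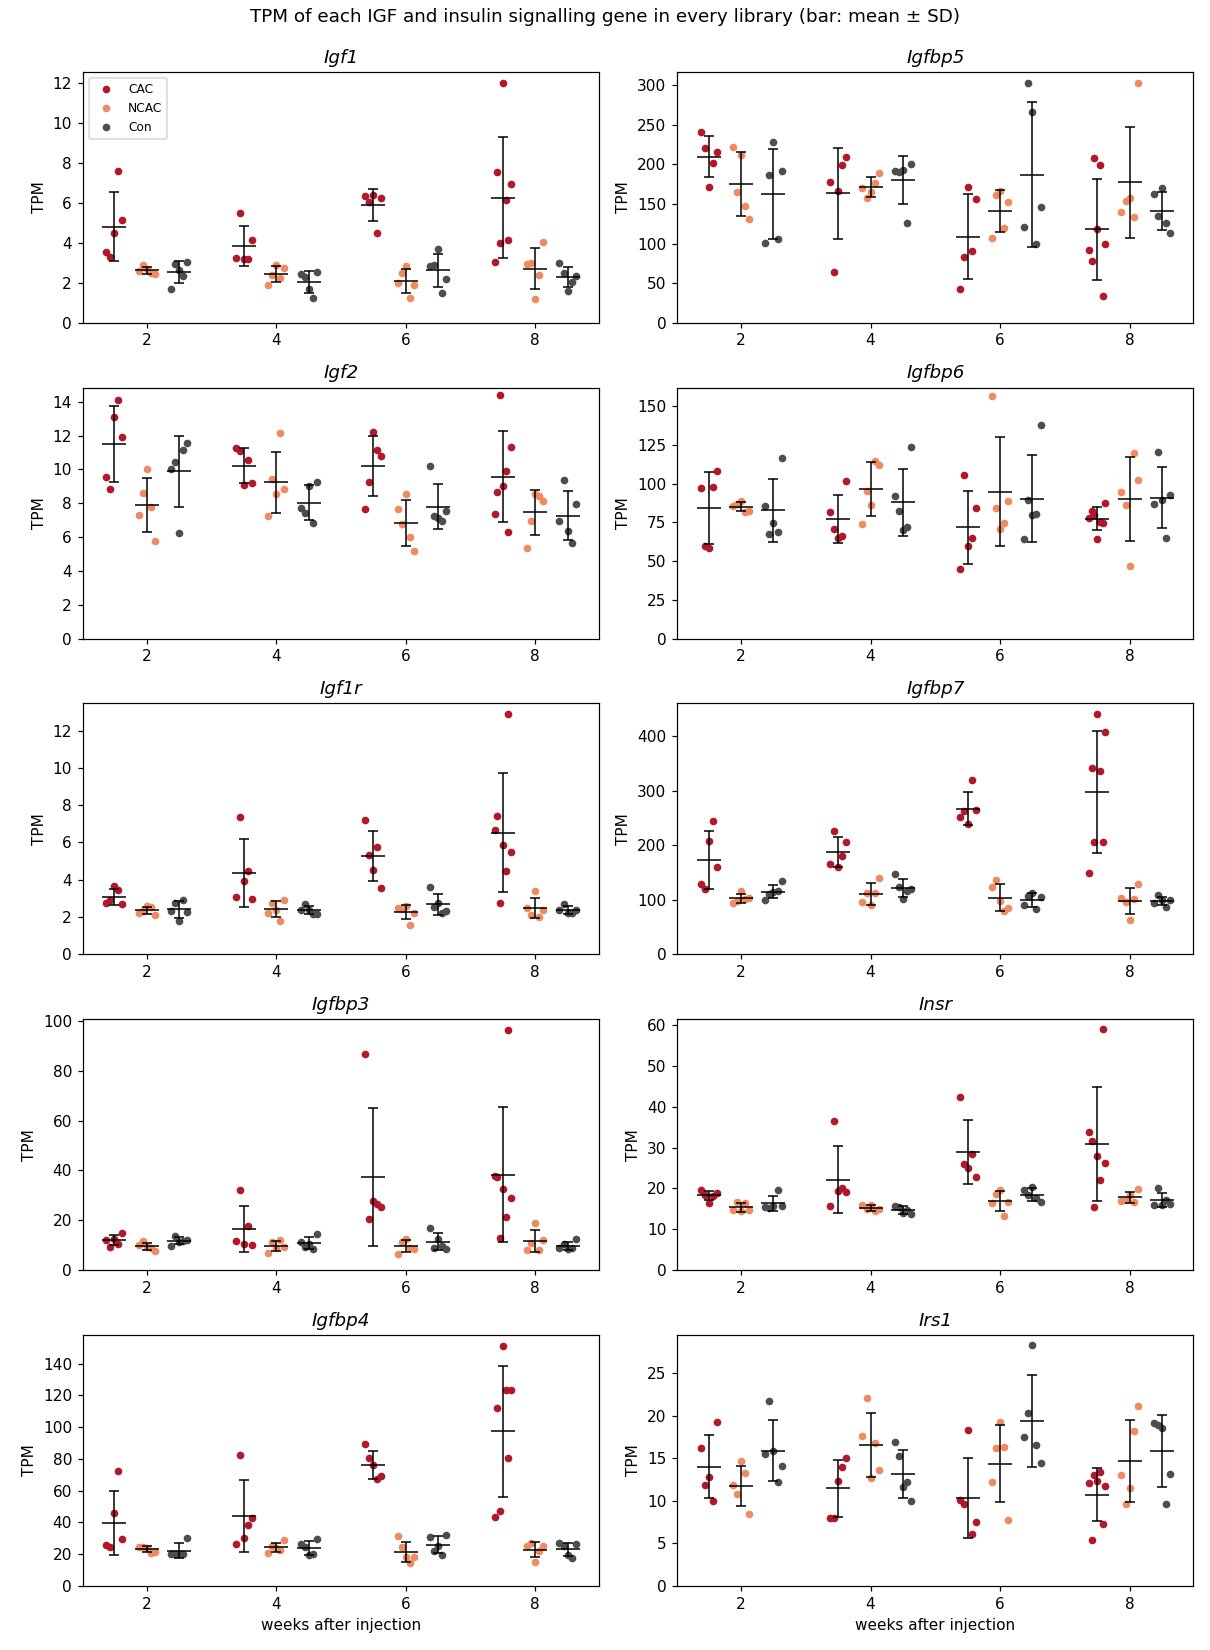
TPM of each of the 10 genes (vertical axes, from 0) in every library by weeks after injection (horizontal axes), with CAC, NCAC and Con from left to right at each week; points are libraries and bars are mean ± SD. Igfbp4 and Igfbp7 lay higher in every CAC library than in any NCAC or Con library at 6 and 8 weeks, while Irs1 overlapped between the groups at every week.

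The RefSeq promoter table (build GRCm38.p6) held 9 of the 10 genes. Shown here are the windows of the 3 binding protein genes with the largest rises at 8 weeks and that of the gene that fell, each covering 250 bases before to 50 bases after the annotated start. Igfbp3 lies at chr11:7213874-7214173 on the minus strand, Igfbp4 at chr11:99040994-99041293 on the plus strand, Igfbp7 at chr5:77407996-77408295 on the minus strand and Irs1 at chr1:82291390-82291689 on the minus strand. Capitals mark the GC box GGGCGG, which Sp1 family factors bind, and the TATA motif TATAAA, each searched on both strands.
Igfbp3: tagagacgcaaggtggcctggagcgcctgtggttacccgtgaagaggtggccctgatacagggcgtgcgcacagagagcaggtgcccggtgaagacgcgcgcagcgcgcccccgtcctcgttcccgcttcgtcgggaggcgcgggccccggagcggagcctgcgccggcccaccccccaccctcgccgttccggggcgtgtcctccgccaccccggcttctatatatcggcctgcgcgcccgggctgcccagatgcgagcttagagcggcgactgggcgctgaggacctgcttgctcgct
Igfbp4: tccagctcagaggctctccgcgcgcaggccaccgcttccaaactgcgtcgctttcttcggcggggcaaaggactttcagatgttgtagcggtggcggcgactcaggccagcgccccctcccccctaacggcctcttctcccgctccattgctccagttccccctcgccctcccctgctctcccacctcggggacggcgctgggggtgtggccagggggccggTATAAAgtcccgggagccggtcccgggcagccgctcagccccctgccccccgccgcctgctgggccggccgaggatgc
Igfbp7: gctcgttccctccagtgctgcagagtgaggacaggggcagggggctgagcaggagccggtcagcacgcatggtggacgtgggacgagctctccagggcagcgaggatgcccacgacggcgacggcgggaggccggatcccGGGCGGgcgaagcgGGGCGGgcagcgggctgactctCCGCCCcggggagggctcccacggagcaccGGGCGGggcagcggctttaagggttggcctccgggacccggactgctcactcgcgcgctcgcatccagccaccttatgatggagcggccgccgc
Irs1: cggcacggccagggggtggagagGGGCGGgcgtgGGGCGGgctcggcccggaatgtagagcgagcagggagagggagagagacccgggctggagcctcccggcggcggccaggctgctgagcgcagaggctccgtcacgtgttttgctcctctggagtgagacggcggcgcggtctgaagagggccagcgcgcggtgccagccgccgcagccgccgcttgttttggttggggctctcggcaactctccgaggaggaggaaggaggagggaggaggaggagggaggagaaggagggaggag
The Igfbp7 window held 4 GC boxes, the Irs1 window 2 and the Igfbp4 window 1 TATA motif, while the Igfbp3 window held neither. Of all 32851 promoter windows 35.7% held a GC box and 13.6% a TATA motif. The FoxO motif TGTTTAC, present in 3.65% of all windows, and the STAT motif TTCNNNGAA, present in 8.3%, were in 0 of the windows of the set, on either strand. The windows of Igfbp3, Igfbp4, Igfbp7 and Irs1 were 71.7%, 71.3%, 73.3% and 71.3% G and C, against a median of 52.7% over all windows. The Igf1 window was 52.3% G and C, so the genes that rose did not all share this composition.

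Per length of transcript Igfbp4, Igfbp5, Igfbp6 and Igfbp7 had the highest mean levels of the set. Over all weeks in CAC (SD, n = 22) the mean level was 237 ± 86.6 TPM for Igfbp7, 147 ± 64.2 TPM for Igfbp5, 77.7 ± 16.99 TPM for Igfbp6 and 67.3 ± 36.1 TPM for Igfbp4. These SDs hold the change over weeks as well as the spread between libraries, and at 2 weeks Igfbp5 led Igfbp7 in CAC, at 209.9 ± 25.8 against 172 ± 53.3 TPM (SD, n = 5). In Con (SD, n = 20) it was 168 ± 55.6 TPM for Igfbp5, 109 ± 15.7 TPM for Igfbp7, 88.1 ± 21.1 TPM for Igfbp6 and 23.8 ± 4.48 TPM for Igfbp4. The lower levels in CAC were 27.1 ± 22.8 TPM for Igfbp3, 25.6 ± 10.3 TPM for Insr, 11.6 ± 3.72 TPM for Irs1, 10.3 ± 2.09 TPM for Igf2, 5.30 ± 2.11 TPM for Igf1 and 4.96 ± 2.38 TPM for Igf1r. In that order, Insr and Irs1 changed places with Igfbp3 in Con, where Insr was at 16.7 ± 1.99 TPM, Irs1 at 16.1 ± 4.42 TPM, Igfbp3 at 10.9 ± 2.26 TPM and Igf2 at 8.25 ± 1.74 TPM. Igf1r and Igf1 were last in Con, at 2.46 ± 0.379 and 2.37 ± 0.618 TPM. In NCAC (SD, n = 20) the order was that of Con except at the last 2 places, where Igf1 was at 2.46 ± 0.629 TPM and Igf1r at 2.38 ± 0.391 TPM. Some neighbours in these orders lay within 1 SD of each other, such as Igf1 and Igf1r in all 3 groups, Insr and Irs1 in Con, and Igfbp6 and Igfbp4 in CAC.

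The genes lie at chr10:87858265-87937042 (Igf1, plus strand), chr7:142650766-142666816 (Igf2, minus strand), chr7:67952827-68233668 (Igf1r, plus strand), chr8:3122061-3279617 (Insr, minus strand) and chr1:82233101-82291416 (Irs1, minus strand) for the ligands, the receptors and the adaptor, in mm10 by GENCODE M21. The binding protein genes lie at chr11:7206086-7213923 (Igfbp3, minus strand), chr11:99041244-99054392 (Igfbp4, plus strand), chr1:72857932-72874884 (Igfbp5, minus strand), chr15:102144362-102149511 (Igfbp6, plus strand) and chr5:77349240-77408041 (Igfbp7, minus strand). All 10 are annotated as protein coding.

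Igf1, the growth factor that muscle makes for local use, was higher in CAC than in Con from 4 weeks on. At 2 weeks the CAC libraries had 3.53, 3.28, 4.50, 7.58 and 5.14 TPM, against 1.67, 2.92, 2.65, 2.34 and 3.05 TPM in Con. Every CAC library already lay above every Con library then, but the log2 change of 0.69 (SE 0.21, adjusted p = 0.117) was not called. In bulk tissue, more cells that express a gene and more RNA of it per cell cannot be told apart.

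At 4 weeks Igf1 was at 3.24, 5.48, 3.17, 3.18 and 4.15 TPM in CAC and 2.45, 2.30, 1.70, 1.21 and 2.54 TPM in Con, a log2 change of 0.67 (SE 0.21, adjusted p = 0.0158). At 6 weeks it was at 6.33, 6.02, 6.39, 4.49 and 6.24 TPM in CAC and 2.84, 2.87, 3.68, 1.51 and 2.17 TPM in Con, a change of 0.95 (SE 0.21, adjusted p = 0.000227). The 7 CAC libraries of 8 weeks were at 3.04 TPM at the lowest, 6.16 TPM at the median and 12.01 TPM at the highest, against 2.97, 2.49, 1.57, 2.05 and 2.34 TPM in Con. The groups did not overlap at any of these weeks, although the lowest CAC library at 8 weeks, replicate 1, stood just above the highest Con library. The change at 8 weeks was 1.06 (SE 0.19, adjusted p = 6.18e-06), and it was 0.72 after scaling. Its call at 4 weeks was lost without CAC replicate 2 or Con replicate 4 of that week (adjusted p = 0.106 and 0.0596).

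Igf2, the fetal growth factor whose gene is imprinted, showed a small difference that depended on scaling. At 6 weeks it was at 7.66, 9.29, 12.2, 11.1 and 10.8 TPM in CAC and 10.2, 7.23, 7.12, 6.97 and 7.52 TPM in Con, which overlapped, with a log2 change of 0.35 (SE 0.16, adjusted p = 0.058). At 8 weeks the CAC libraries were at 6.29 TPM at the lowest, 9.03 TPM at the median and 14.4 TPM at the highest, against 6.92, 9.40, 6.37, 5.67 and 7.94 TPM in Con. The change of 0.34 (SE 0.15, adjusted p = 0.0383) was called as deposited, but it was -0.03 after scaling, and it lost its call when any 1 of 6 libraries was left out (CAC replicates 3, 5 and 7, Con replicates 1, 3 and 4). Reads of Igf2 share exons on the same strand with the predicted gene Gm49394, so its level is uncertain by that overlap.

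Igf1r, the receptor kinase that IGF-1 binds, was at 3.08, 7.39, 3.92, 4.47 and 2.96 TPM in CAC and 2.39, 2.68, 2.39, 2.18 and 2.15 TPM in Con at 4 weeks. At 6 weeks it was at 7.18, 5.30, 4.53, 5.74 and 3.56 TPM in CAC and 3.64, 2.53, 2.73, 2.23 and 2.34 TPM in Con. By 8 weeks it reached 2.78 TPM at the lowest, 5.89 TPM at the median and 12.9 TPM at the highest in CAC, against 2.40, 2.69, 2.21, 2.22 and 2.36 TPM in Con. The highest library was replicate 2 at 4 weeks, replicate 1 at 6 weeks and replicate 6 at 8 weeks, while replicate 3 at 8 weeks lay just above the highest Con library. The log2 changes were 0.62 (SE 0.18, adjusted p = 0.0106), 0.75 (SE 0.18, adjusted p = 0.000633) and 1.06 (SE 0.16, adjusted p = 6.25e-07) at 4, 6 and 8 weeks. All 3 calls held after scaling, at 0.46, 0.48 and 0.72. The call at 4 weeks was lost without CAC replicate 2 (0.45, adjusted p = 0.115). It was also lost with these 2 groups fitted alone by limma (adjusted p = 0.0518). At 6 weeks the lowest CAC library, at 3.56 TPM, lay below the highest Con library, at 3.64 TPM.

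Insr, the insulin receptor, showed the same libraries at the top. At 6 weeks it was at 42.3, 25.98, 25.1, 28.3 and 22.9 TPM in CAC and 19.7, 18.4, 20.3, 17.5 and 16.6 TPM in Con, which did not overlap. Insr at 8 weeks was at 15.5 TPM at the lowest, 28.01 TPM at the median and 59.2 TPM at the highest in CAC, against 16.02, 20.1, 15.9, 17.2 and 16.3 TPM in Con, and CAC replicate 3 lay below every Con library. The log2 changes were 0.50 (SE 0.17, adjusted p = 0.0259) at 4 weeks, 0.59 (SE 0.17, adjusted p = 0.00328) at 6 weeks and 0.72 (SE 0.16, adjusted p = 8.99e-05) at 8 weeks. After scaling they were 0.31, 0.27 and 0.32, with adjusted p of 0.118, 0.125 and 0.0362, so that of these the call at 8 weeks held. At 4 weeks the call also ended when CAC replicate 2 was left out (adjusted p = 0.236), and when Con replicate 3 was (adjusted p = 0.0528). Per length of transcript, Insr was more abundant than Igf1r in every group, with a mean at 8 weeks of 30.9 ± 13.9 against 6.52 ± 3.19 TPM in CAC (SD, n = 7) and 17.1 ± 1.73 against 2.37 ± 0.194 TPM in Con (SD, n = 5).

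Irs1, the adaptor that couples both receptors to PI3K, fell between CAC and Con at 6 and 8 weeks. It was at 10.1, 9.66, 18.3, 6.05 and 7.52 TPM in CAC and 17.5, 20.3, 28.3, 16.5 and 14.5 TPM in Con at 6 weeks, where CAC replicate 3 stood among the Con libraries and the other 4 lay below all of them. At 8 weeks it was at 5.42 TPM at the lowest, 12.1 TPM at the median and 13.4 TPM at the highest in CAC, against 19.1, 18.9, 18.5, 9.64 and 13.1 TPM in Con, and the groups overlapped through Con replicates 4 and 5. The log2 changes were -0.90 (SE 0.24, adjusted p = 0.00184) and -0.53 (SE 0.22, adjusted p = 0.0308), and they were -1.20 and -0.91 after scaling. At 8 weeks the call was lost when any 1 of 5 libraries was left out (CAC replicates 2 and 6, Con replicates 1, 2 and 3), with adjusted p of 0.0728 to 0.105. Gm9747 overlaps Irs1 exons on the opposite strand, and the strand setting of the counting is not given in the sources used here.

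Igfbp4, a binding protein that restrains IGF action until it is cleaved, had the largest change of the set at 8 weeks. At 2 weeks the CAC libraries had 25.9, 24.6, 45.8, 72.2 and 29.6 TPM, against 20.2, 19.9, 20.3, 20.3 and 30.4 TPM in Con, with replicates 3 and 4 of CAC above the rest. At 6 weeks they had 89.1, 80.2, 76.2, 67.2 and 68.9 TPM, against 30.9, 22.2, 25.04, 19.7 and 32.1 TPM in Con. At 8 weeks they had 43.4 TPM at the lowest, 112 TPM at the median and 151 TPM at the highest, against 27.1, 24.8, 19.7, 17.8 and 26.4 TPM in Con. All CAC libraries lay above all Con libraries at 6 and 8 weeks. The mean was 4.20-fold higher at 8 weeks, and the log2 changes were 0.70 (SE 0.26, adjusted p = 0.224), 0.75 (SE 0.26, adjusted p = 0.0278), 1.53 (SE 0.26, adjusted p = 9.04e-06) and 1.91 (SE 0.24, adjusted p = 8.23e-09) at 2, 4, 6 and 8 weeks. After scaling the change was 0.55 at 4 weeks (adjusted p = 0.0774), which ended that call, and 1.501 at 8 weeks. The call at 4 weeks was also lost without CAC replicate 2 (adjusted p = 0.224), Con replicate 3 (adjusted p = 0.0712) or Con replicate 4 (adjusted p = 0.0659) of that week.

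Igfbp7, a secreted protein of vessel walls and stroma, had the highest mean level of the set in CAC at 4, 6 and 8 weeks. It was at 252, 262, 239, 319 and 265 TPM in CAC and 90.5, 108, 113, 83.7 and 105 TPM in Con at 6 weeks. The level at 8 weeks was 149 TPM at the lowest, 336 TPM at the median and 441 TPM at the highest in CAC, against 94.2, 108, 99.6, 86.5 and 99.4 TPM in Con, and the lowest CAC library, replicate 1, was still above all Con libraries. The log2 changes were 0.61 (SE 0.19, adjusted p = 0.0177), 1.41 (SE 0.19, adjusted p = 2.44e-07) and 1.51 (SE 0.18, adjusted p = 2.85e-09) at 4, 6 and 8 weeks. After scaling the change was 0.41 (adjusted p = 0.0792) at 4 weeks and 1.09 at 8 weeks, which ended the call at 4 weeks. Leaving out CAC replicate 2 ended it too (adjusted p = 0.0971), as did leaving out Con replicate 3 (adjusted p = 0.0501). Polr2b overlaps Igfbp7 on the opposite strand.

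Igfbp3, the main IGF carrier of blood, rose at 6 and 8 weeks, unevenly between libraries. At 4 weeks it was at 11.8, 32.01, 10.5, 17.5 and 9.99 TPM in CAC and 11.4, 9.15, 10.6, 8.36 and 14.4 TPM in Con, with a change of 0.45 (SE 0.30, adjusted p = 0.255). At 6 weeks it was at 86.8, 20.3, 27.7, 26.6 and 25.4 TPM in CAC and 16.8, 8.98, 12.6, 9.76 and 8.60 TPM in Con, where replicate 1 stood far above the rest and the other 4 still lay above Con. At 8 weeks it was at 12.9 TPM at the lowest, 32.6 TPM at the median and 96.2 TPM at the highest in CAC, against 8.77, 10.6, 8.62, 8.83 and 12.3 TPM in Con, and replicate 3 lay just above the highest Con library. The changes were 1.46 (SE 0.30, adjusted p = 0.000131) and 1.63 (SE 0.28, adjusted p = 2.41e-06), and both were called whichever library was left out.

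**Figure D2:**
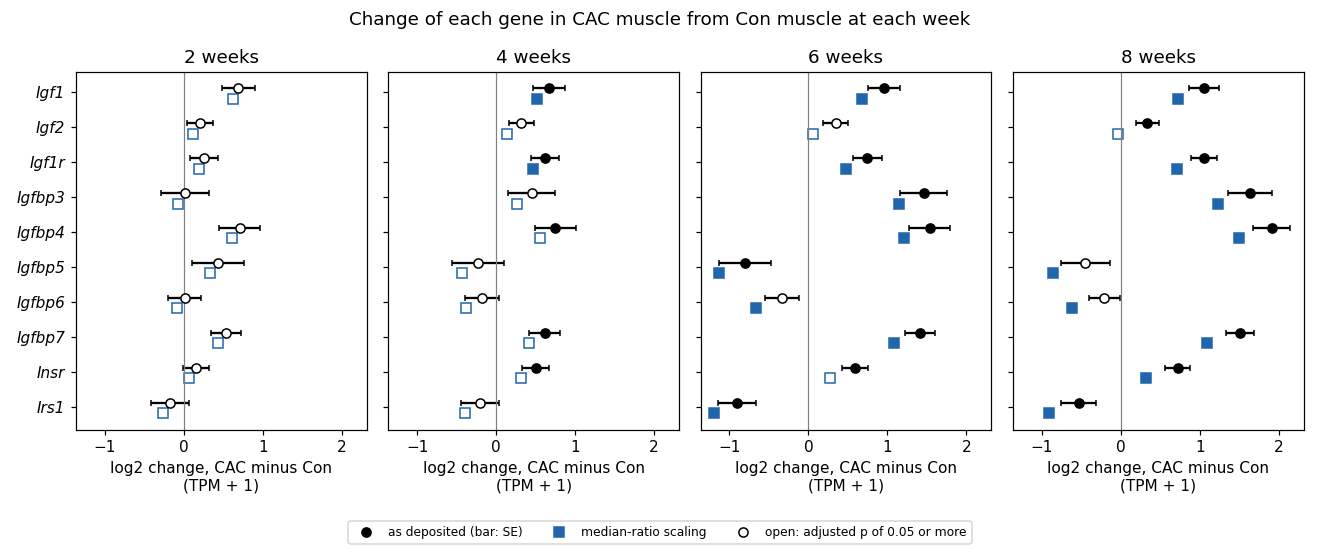
Log2 change of each gene between CAC and Con on TPM + 1 (horizontal axis) at 2, 4, 6 and 8 weeks (panels); circles are values as deposited with their SE, squares are values after median-ratio scaling, and open symbols have an adjusted p of 0.05 or more. Igfbp3, Igfbp4 and Igfbp7 lay between 1.51 and 1.91 at 8 weeks as deposited, while Irs1 lay at -0.53.

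Igfbp5, a binding protein that muscle fibres and myoblasts express, had the highest mean level of the set in Con at every week and was low in some CAC libraries. It was at 42.02, 82.9, 172, 90.6 and 156 TPM in CAC and 120.5, 304, 266, 99.4 and 146 TPM in Con at 6 weeks, where CAC replicates 1, 2 and 4 lay below all Con libraries and the other 2 among them. Igfbp5 at 8 weeks was at 33.2 TPM at the lowest, 99.5 TPM at the median and 208 TPM at the highest in CAC, against 162, 135, 170.4, 126 and 114 TPM in Con, so that CAC spread both below and above Con. The log2 change was -0.81 (SE 0.33, adjusted p = 0.0355) at 6 weeks, a call lost without any 1 of CAC replicates 1, 2 and 4 and Con replicates 2 and 3, with -0.51 (adjusted p = 0.203) without CAC replicate 1. At 8 weeks it was -0.45 (SE 0.31, adjusted p = 0.19) as deposited and -0.86 (adjusted p = 0.0327) after scaling.

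Igfbp6, a binding protein that prefers IGF-2, was not called at 6 or 8 weeks as deposited. It was at 44.9, 105, 59.6, 64.9 and 84.6 TPM in CAC and 64.5, 89.7, 79.6, 80.2 and 138 TPM in Con at 6 weeks, with 64.5 TPM at the lowest, 78.03 TPM at the median and 87.6 TPM at the highest in CAC and 86.9, 120.3, 89.7, 64.8 and 92.95 TPM in Con at 8 weeks. The ranges overlapped at both weeks. The changes were -0.34 (SE 0.21, adjusted p = 0.169) and -0.21 (SE 0.20, adjusted p = 0.35), which became -0.66 (adjusted p = 0.0165) and -0.62 (adjusted p = 0.0109) after scaling.

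The makeup of the binding protein transcripts does not depend on scaling, because it compares genes within a library. At 8 weeks Igfbp7 held 46.1% ± 7.80 of the summed TPM of the 5 Igfbp genes in CAC (SD, n = 7), against 24.7% ± 2.94 in NCAC and 26.98% ± 1.72 in Con (SD, n = 5 each). Igfbp4 held 14.9% ± 3.74 in CAC, 5.80% ± 1.19 in NCAC and 6.39% ± 1.02 in Con. The share of Igfbp5 was 19.1% ± 10.5 in CAC, 43.8% ± 8.48 in NCAC and 39.00% ± 5.15 in Con. Thus Igfbp5 led in NCAC and Con and Igfbp7 led in CAC. The Igfbp6 share was 13.1% ± 3.77 in CAC, 22.6% ± 6.17 in NCAC and 24.9% ± 3.60 in Con, and that of Igfbp3 was 6.84% ± 6.12, 3.13% ± 1.82 and 2.73% ± 0.538 in the same groups. The CAC share of Igfbp5 at 8 weeks ranged from 6.77% in replicate 6 to 37.6% in replicate 3. These shares were not tested.

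**Figure D3:**
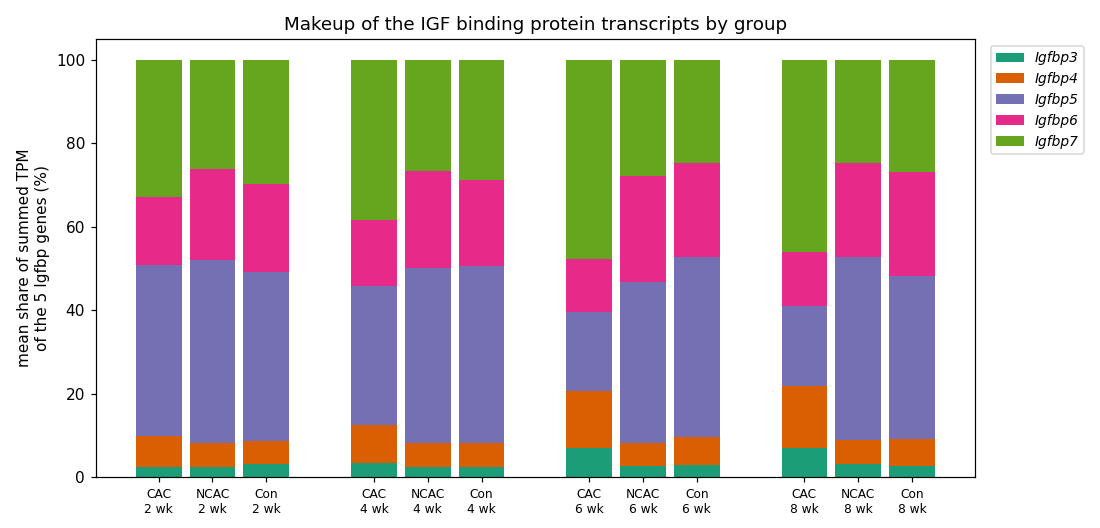
Mean share of each Igfbp gene in the summed TPM of the 5 Igfbp genes (vertical axis, %) for CAC, NCAC and Con at 2, 4, 6 and 8 weeks. The Igfbp5 segment was 19.02% in CAC, 38.6% in NCAC and 43.2% in Con at 6 weeks, while the Igfbp7 segment was 47.7%, 27.8% and 24.8% in the same groups.

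CAC was also compared with NCAC, in which melanoma cells were injected too. These groups received different melanoma cells, so cachexia and other differences between the cells cannot be told apart here. The comparisons of CAC with Con and with NCAC share the CAC libraries, so their values are given side by side. Median-ratio scaling lowered the median log2 change between CAC and NCAC by 0.126, 0.184, 0.396 and 0.388 at 2, 4, 6 and 8 weeks. At 8 weeks 6 genes rose and 1, Igfbp5, fell between CAC and NCAC, against 67.5% and 4.8% of all genes. After scaling 5 rose and 3 fell (Igfbp5, Igfbp6 and Irs1), against 22.6% and 22.4%. Igfbp6 was at -0.15 (adjusted p = 0.491) by limma as deposited and -0.58 (adjusted p = 0.0158) after scaling. At 6 weeks 7 rose and 0 fell, against 64.1% and 4.64% of all genes. After scaling 5 rose and 3 fell (Igfbp5, Igfbp6 and Irs1), against 19.7% and 21.7%. Igf2 and Insr changed by 0.52 and 0.72 as deposited. They lost their calls after scaling, at 0.12 (adjusted p = 0.56) and 0.29 (adjusted p = 0.0859) by limma. At 4 weeks 4 rose (Igf1r, Igfbp4, Igfbp7 and Insr) and 0 fell, against 18.1% and 1.59% of all genes. After scaling 1, Igfbp7, rose and 0 fell, against 2.97% and 5.12%. Igf1 was not called against NCAC by limma at that week, at 0.49 (SE 0.21, adjusted p = 0.0772) as deposited. At 2 weeks 0 of the 10 were called by limma, against 1.16% of all genes higher and 0.0162% lower, and 0 after scaling, against 0.356% and 0.0971%. At that week 4 had an unadjusted p under 0.05, and array weights called 2.

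Igfbp4 was at 43.4 to 151 TPM in CAC and 25.3, 26.8, 14.8, 21.9 and 24.95 TPM in NCAC at 8 weeks, with a log2 change of 1.94 (SE 0.24, adjusted p = 5.08e-09), beside 1.91 against Con. Igfbp7 was at 149 to 441 TPM in CAC and 104, 96.7, 62.2, 101 and 129 TPM in NCAC, with a change of 1.53 (SE 0.18, adjusted p = 2.03e-09), beside 1.51. Neither overlapped between CAC and NCAC. Igf1 was at 3.04 to 12.01 TPM in CAC and 2.92, 2.98, 1.20, 2.40 and 4.02 TPM in NCAC, a change of 0.92 (SE 0.19, adjusted p = 4.33e-05), with NCAC replicate 5 inside the CAC range. For Igf1r, Igfbp3 and Insr the changes were 1.03 (SE 0.16, adjusted p = 9.50e-07), 1.47 (SE 0.28, adjusted p = 1.18e-05) and 0.66 (SE 0.16, adjusted p = 0.000247). The change of Insr was 0.24 after scaling and was then not called. Irs1, which was called against Con, was not called against NCAC at 8 weeks, at -0.42 (SE 0.22, adjusted p = 0.0874) as deposited, and was called at -0.81 (adjusted p = 0.00289) after scaling. At 6 weeks Irs1 was likewise not called against NCAC as deposited, at -0.47 (SE 0.24, adjusted p = 0.0786), and was called at -0.87 (adjusted p = 0.00354) after scaling. Igfbp5 was at 33.2 to 208 TPM in CAC and 139.8, 153, 157, 133 and 303 TPM in NCAC, with a change of -0.71 (SE 0.31, adjusted p = 0.0348). NCAC replicate 5 was the highest of them all. The call was lost without CAC replicate 1, 2 or 6 (adjusted p = 0.0502, 0.0651 and 0.158) or NCAC replicate 5 (adjusted p = 0.156).

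Between NCAC and Con, 0 of the 10 genes were called at any week by limma, against 0% of all genes as deposited and 0.00809% higher at 6 weeks after scaling, and 0 of the 10 had an unadjusted p under 0.05, while 139 to 909 of the 12364 genes did. No alternative setting and no omission of 1 library called a gene of the set. The log2 changes of the 10 genes lay between -0.43 (Irs1 at 6 weeks) and 0.31 (Irs1 at 4 weeks), so Irs1 held both ends. Its levels were 12.2, 16.2, 19.3, 16.3 and 7.71 TPM in NCAC and 17.5, 20.3, 28.3, 16.5 and 14.5 TPM in Con at 6 weeks. For Igfbp4 and Igfbp7 at 8 weeks the changes were -0.04 (SE 0.26) and -0.02 (SE 0.19).

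Whether the difference between CAC and Con itself changed between the 4 weeks was tested with an F test, which called 3 of the 10 genes, against 12.1% of all genes. These were Igfbp3, Igfbp4 and Igfbp7, with adjusted p of 0.014, 0.0267 and 0.0124. Their log2 changes over 2, 4, 6 and 8 weeks were 0.01, 0.45, 1.46 and 1.63 for Igfbp3, and 0.70, 0.75, 1.53 and 1.91 for Igfbp4. For Igfbp7 they were 0.53, 0.61, 1.41 and 1.51. None of the 3 was called at 2 weeks, and their courses were not compared with each other. The same 3 genes were called for the difference between CAC and NCAC, against 20% of all genes, with adjusted p of 0.0272, 0.0082 and 0.0269. After scaling Igfbp3 and Igfbp7 remained called against Con (adjusted p = 0.0372 and 0.0492) and Igfbp4 against NCAC (adjusted p = 0.027). The call of Igfbp4 against Con was lost without CAC replicate 1 or 2 at 2 weeks (adjusted p = 0.0548 and 0.0502) or Con replicate 4 at 8 weeks (adjusted p = 0.0602). That of Igfbp7 against NCAC was lost without CAC replicate 1 at 2 weeks (adjusted p = 0.0543) or NCAC replicate 3 at 8 weeks (adjusted p = 0.0512). Igf1r was not called against Con (adjusted p = 0.0866), but was without CAC replicate 2 at 4 weeks (adjusted p = 0.0296) or CAC replicate 3 at 8 weeks (adjusted p = 0.0105). Igf1, whose change was 0.69, 0.67, 0.95 and 1.06 over the weeks, was not called (adjusted p = 0.583). Within Con, 0 of the 10 genes changed over the weeks by the F test, against 0.59% of all genes, and 0 had an unadjusted p under 0.05.

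The calls at 4 weeks depended on single libraries, CAC replicate 2 most of all. Without CAC replicate 2, 0 of the 10 genes were called between CAC and Con and the share of all genes that rose was 5.72%, and 0 were called between CAC and NCAC, with 2.1% of all genes higher. Insr then changed by 0.31 (adjusted p = 0.236), against 0.50 with it, and Igf1 by 0.56 (adjusted p = 0.106), against 0.67. The change of Igfbp7 was 0.54 against Con without that library, and 0.61 with it. Between CAC and NCAC at 4 weeks, Insr and Igfbp4 lost their calls in 7 and 6 of the 10 omissions, Igf1r without NCAC replicate 4 as well (adjusted p = 0.0559), and Igfbp7 without CAC replicate 2 (adjusted p = 0.056). Without CAC replicate 1 at 6 weeks, 7 genes rose and 1 fell against Con, against 40.8% and 3.88% of all genes, Igf2 being gained and Igfbp5 lost. Without CAC replicate 6 at 8 weeks, 7 rose and 0 fell against Con, against 64.1% and 4.67% of all genes, Irs1 being lost (adjusted p = 0.0728).

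Within CAC the genes did not all peak in the same libraries. Insr, Igf1r and Igfbp3 were highest in the same CAC library at 4, 6 and 8 weeks. Igf1, Igfbp4 and Igfbp7 shared that library at 4 weeks, but were highest in replicate 4 at 2 weeks and in replicate 4 at 8 weeks. At 6 weeks Igfbp4 was highest in replicate 1, as were Insr, Igf1r and Igfbp3, while Igf1 was highest in replicate 3 and Igfbp7 in replicate 4. At 8 weeks replicate 4 had 151 TPM of Igfbp4 and 28.01 TPM of Insr, while replicate 6 had 80.7 TPM of Igfbp4 and 59.2 TPM of Insr. Igfbp5 was lowest in the same 3 libraries in which Insr was highest. As a description over 62 libraries, with the group means removed, Pearson's r on log2(TPM + 1) was 0.867 for Igf1r with Insr, 0.805 for Igfbp3 with Insr, 0.808 for Igfbp4 with Igfbp7 and 0.768 for Igf1 with Igfbp4. For the 9 pairs with 1 gene from each of these sets it lay between -0.0732 for Igfbp3 with Igfbp7 and 0.326 for Igf1r with Igfbp4, and it was -0.645 for Igfbp5 with Insr. Both sets were formed from the peaks in these same libraries, so the r values are no test of them. Values of a library share its depth and its scaling.

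**Figure D4:**
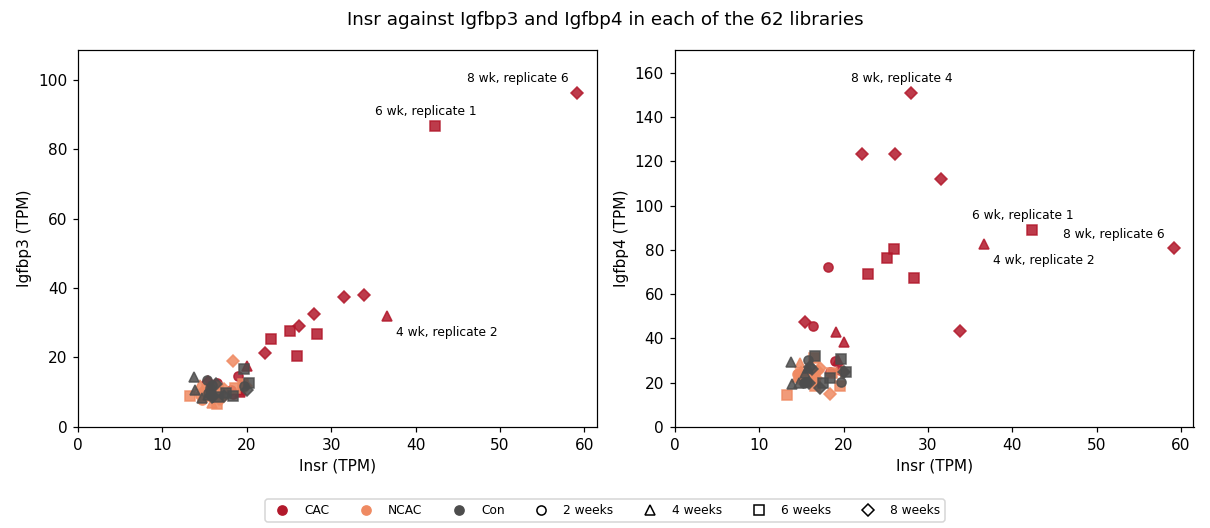
Igfbp3 (left panel, vertical axis, TPM) and Igfbp4 (right panel, vertical axis, TPM) against Insr (horizontal axes, TPM) in each of the 62 libraries; colours are the groups and symbols the weeks, and the named points are CAC libraries. Igfbp3 was higher where Insr was higher, up to 96.2 TPM in replicate 6 at 8 weeks, whereas the highest Igfbp4 value, 151 TPM in replicate 4 at 8 weeks, came with an Insr level of 28.01 TPM.

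The genes most like each member over the 62 libraries, by Pearson's r on log2(TPM + 1) among all tested genes, were different for each member. For Insr they were Bod1l, Scaf11 and Phc3, with r of 0.97, 0.968 and 0.966, and for Igf1r Med13l, Sidt2 and Foxk1, with r of 0.964, 0.963 and 0.961. For Igfbp4 they were Rarres2, Shisa5 and Carhsp1 (0.976, 0.974 and 0.973), for Igfbp7 Pros1, Arpc1b and Gnai2 (0.955, 0.953 and 0.953), and for Igf1 Fbln5, Cadm3 and Ddr2 (0.925, 0.924 and 0.922). Igfbp3 was most like Wac, Bnip3l and Atp6v1h (0.94, 0.939 and 0.937), and Igfbp5 most like Ak1, Phkg1 and Amd1 (0.821, 0.815 and 0.793). Likeness was lower for Irs1, with Ptp4a2, Pcdh12 and B3galnt2 (0.741, 0.714 and 0.703), for Igfbp6, with Aff3, Islr and Ltbp4_1 (0.677, 0.65 and 0.641), and for Igf2, with Prkra, Capn6 and Afap1l1 (0.645, 0.643 and 0.638).

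Downstream of the receptors, 24 of the 33 genes of the PI3K, AKT and mTOR list rose between CAC and Con at 8 weeks and 0 fell, against 65.3% and 5.55% of all genes, and after scaling 11 rose and 6 fell, against 22.9% and 22.3%. The median log2 change of the list was 0.50, against 0.36 for all genes. Eif4ebp1, the translation repressor that mTOR inactivates, was at 93.97 to 1309 TPM in CAC and 63.2 to 95.5 TPM in Con, a change of 2.43 (SE 0.34, adjusted p = 9.18e-08). Akt1, the kinase itself, was at 33.6 to 130.2 TPM in CAC and 22.00 to 25.6 TPM in Con, a change of 1.18 (SE 0.18, adjusted p = 6.26e-07). Both were highest in CAC replicate 6. Akt1 did not overlap between the groups, and the lowest CAC library of Eif4ebp1 lay within the Con range. Inpp5k, a phosphatase that lowers PI3K products, changed by 0.73 (SE 0.10, adjusted p = 3.01e-08), and Eif4ebp2, a relative of Eif4ebp1, by 0.74 (SE 0.11, adjusted p = 4.89e-07). All 4 calls held when any 1 library was left out. At 4 weeks 8 genes of this list rose and 0 fell, against 23% and 2.38% of all genes, and after scaling 2 rose and 1 fell, against 7.43% and 7.8%. At 6 weeks 21 rose and 1 fell, against 51.8% and 5.41%, and after scaling 7 rose and 7 fell, against 14.4% and 17.2%.

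Of the FoxO and glucose uptake list, 6 of 10 genes rose and 1 fell at 8 weeks, against 65.3% and 5.55% of all genes, and after scaling 4 rose and 3 fell, against 22.9% and 22.3%. The median log2 change was 0.34 for the list and 0.36 for all genes as deposited. Foxo1, a transcription factor of atrophy genes, was at 4.90 to 51.7 TPM in CAC and 4.03 to 7.24 TPM in Con, a change of 1.90 (SE 0.37, adjusted p = 2.07e-05), with replicate 6 highest and the lowest CAC library within the Con range. Foxo3 changed by 1.15 (SE 0.20, adjusted p = 3.25e-06) and Tbc1d4, an AKT substrate that controls glucose transporter traffic, by 0.83 (SE 0.18, adjusted p = 7.99e-05). Foxo4 rose by 0.40 (SE 0.07, adjusted p = 7.50e-06) as deposited and stood at -0.01 after scaling.

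Among the receptor adaptors and inhibitors, 8 of 11 tested genes rose and 1 fell at 8 weeks, near the 65.3% and 5.55% of all genes. After scaling 3 rose and 3 fell, against 22.9% and 22.3%, and the median as deposited was 0.42, against 0.36 for all genes. Ptpn1, a phosphatase that removes phosphate from the insulin receptor, was at 12.9 to 24.5 TPM in CAC and 7.60 to 9.89 TPM in Con, which did not overlap, a change of 0.90 (SE 0.12, adjusted p = 2.92e-08). Grb14, an inhibitor of the receptor kinase, was at 2.03 to 6.34 TPM in CAC and 6.48 to 9.06 TPM in Con, a change of -0.995 (SE 0.20, adjusted p = 3.77e-05). Ptpn1 and Grb14 both restrain the receptor, and they moved in opposite directions. The adaptors Sh2b2 and Shc1 changed by 0.73 (SE 0.15, adjusted p = 5.04e-05) and 0.42 (SE 0.09, adjusted p = 5.29e-05), and Shc1 stood at 0.04 after scaling.

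Of the other IGF ligands, binding proteins and regulators, 5 of 14 passed the filter, and Igfbp1 and Igfbp2 did not. At 8 weeks 3 of the 5 rose and 0 fell, and after scaling 1 rose and 0 fell, which for the rises is near the 65.3% and 22.9% of all genes. The median as deposited was 0.57, against 0.36 for all genes. H19, the noncoding RNA next to Igf2 and imprinted with it, was at 1193 to 1765 TPM in CAC and 629.9 to 1105 TPM in Con, a change of 0.84 (SE 0.22, adjusted p = 0.000637) that was 0.43 and not called after scaling. Stc1, whose product inhibits the protease that cleaves IGFBP4, changed by 0.65 (SE 0.16, adjusted p = 0.000338) and kept its call at 0.44 after scaling. It was near the floor, at 0.50 to 2.15 TPM in CAC, 0.11 to 0.38 TPM in NCAC and 0.25 to 0.61 TPM in Con. All NCAC and Con libraries of that week thus lay under the 1 TPM of the filter, so its rise is not independent of the filter. It is the gene of this list that rose after scaling. Igf2r, the receptor that clears IGF-2, changed by 0.29 (SE 0.08, adjusted p = 0.00084) and stood at -0.10 after scaling.

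Of the growth hormone axis, which controls Igf1 transcription, 0 of 6 genes were called in either direction at 8 weeks by limma as deposited, against 65.3% of all genes higher and 5.55% lower, and 0 had an unadjusted p under 0.05. After scaling 0 rose and 3 fell, against 22.9% and 22.3%, and the median as deposited was 0.13, against 0.36 for all genes. Ghr, the growth hormone receptor, was at 38.04 ± 8.57 TPM in CAC (SD, n = 7) and 34.3 ± 2.32 TPM in Con (SD, n = 5), a change of 0.12 (SE 0.09, adjusted p = 0.199) that was -0.28 (adjusted p = 0.0031) after scaling. Cish, a feedback inhibitor of this axis, was at 4.72 to 41.5 TPM in CAC and 3.35 to 11.5 TPM in Con, a change of 0.97 (SE 0.54, adjusted p = 0.103).

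Markers of other cell types were counted in the same comparison, in which 65.3% of all genes rose and 5.55% fell. Of the fibro-adipogenic progenitor and fibroblast markers, 4 of 9 rose and 0 fell between CAC and Con at 8 weeks, and they summed to 728 to 1610 TPM in CAC and 441 to 674 TPM in Con. Of the macrophage markers 10 of 10 rose, summing to 278 to 870 TPM in CAC and 88.5 to 317 TPM in Con. The endothelial markers, of which 7 of 8 rose and 1 fell, summed to 165 to 284 TPM in CAC and 98.5 to 147 TPM in Con. The fibroblast and endothelial sums did not overlap between CAC and Con, and the macrophage sums did. As deposited, the shares of fibroblast and adipocyte markers that rose were below that of all genes. Of the smooth muscle and pericyte markers 6 of 7 rose, and of the adipocyte markers 3 of 6, with a median log2 change of 1.15 for the adipocyte list and 0.36 for all genes. After scaling 1 of the 7 smooth muscle and pericyte markers rose and 0 fell, against 22.9% and 22.3% of all genes. Of the 6 adipocyte markers 3 then rose and 1 fell. Of the muscle fibre markers 2 of 8 rose and 3 fell. No marker of these lists was at 0 in all libraries of either group. After scaling 8 of the 10 macrophage markers, 3 of the 9 fibroblast markers and 4 of the 8 endothelial markers rose, against 22.9% of all genes, and 5 of the 8 muscle fibre markers fell, against 22.3%. Of the satellite cell, tenocyte and Schwann cell markers 1 each rose, of 5, 5 and 6 tested, and 0 fell. Their part in the changes of the IGF and insulin genes was not tested.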

How the data were processed

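RNA of gastrocnemius was prepared with a stranded poly(A) kit and sequenced on an Illumina NovaSeq, per the labels' protocols. The deposited table holds TPM values that the authors computed for each gene and library, and the submitters' processing notes name the build mm10. Aligner, counter, annotation and strand setting were not given in the sources used here, so their effect on the values could not be examined. The 10 genes and the pathway and marker lists were chosen with earlier results of these data known.

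Genes with at least 1 TPM in at least 5 of the 62 libraries were kept, which left 12364, and log2(TPM + 1) was fitted with limma 3.58.1 (in R 4.3.3) as 12 group means with a trend in the variance. A fold change on this scale understates the change of low genes. Contrasts were CAC minus Con, CAC minus NCAC and NCAC minus Con at each week, with F tests over weeks, and p-values were adjusted by Benjamini-Hochberg over all 12364 genes, with a threshold of 0.05. All 10 genes of the set are reported, and up to 4 genes of each pathway list were named, those of lowest p between CAC and Con at 8 weeks, with the 3 genes most like each member. The labels call the samples biological replicates without naming animals, so p-values rest on spread between libraries. That spread was pooled over all 12 groups, although Igfbp3 at 8 weeks had an SD of 27.1 TPM in CAC and 1.59 TPM in Con. With 2 groups fitted alone by limma, CAC against Con, Irs1 and Igf2 at 8 weeks lost their calls (adjusted p = 0.0571 and 0.105). Igfbp5 at 6 weeks did too (adjusted p = 0.112). Igf1, Igf1r, Igfbp3, Igfbp4, Igfbp7 and Insr kept theirs at 8 weeks, with adjusted p up to 0.0197. No 2 libraries held identical values. Depth was estimated from low values, of which 78.0% to 79.6% per library came within 0.02 of a whole number of reads, with a median of 46.22 M reads (M for 1e6). Simulated data with 200 changed genes, for CAC against Con at 8 weeks over 12364 genes, gave calls for 75% of 1.5-fold, 94.6% of 2-fold and 100% of 4-fold changes, and 13 unchanged genes were called. The simulation gave a gene the same SD in every group, and in the data 8755 genes were called in this comparison. These rates therefore check the method and are not detection rates for these data. Settings tried besides were a pseudocount of 0.1, dropping the filter, raising it to 5 TPM, median-ratio scaling, leaving out 37 genes of the mitochondrial genome, array weights, a replicate block, fitting 2 groups alone, and leaving out each library. Figures and promoters were handled in Python 3.11.15.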

Additional observations from a re-analysis of the deposited data

Results flagged for a closer look

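Of 120 groups of gene and condition, 13 held a library farther from the rest than Dixon's 95% critical value allows, which chance does in about 1 in 20 groups. In CAC these were Insr in replicate 2 at 4 weeks (36.6 TPM, others 15.7 to 20.1), in replicate 1 at 6 weeks (42.3 TPM, others 22.9 to 28.3) and in replicate 6 at 8 weeks (59.2 TPM, others 15.5 to 33.8). Igfbp3 stood apart in the same CAC libraries at 6 weeks (86.8 TPM, others 20.3 to 27.7) and 8 weeks (96.2 TPM, others 12.9 to 37.9). Igf1 in CAC replicate 4 at 6 weeks was low (4.49 TPM, others 6.02 to 6.39).

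In NCAC, Igfbp6 was high in replicate 1 at 6 weeks (157 TPM, others 70.5 to 88.8) and Igfbp5 in replicate 5 at 8 weeks (303 TPM, others 133 to 157). In Con at 2 weeks, Igf2 was low in replicate 3 (6.26 TPM, the others up to 11.6), Insr high in replicate 4 (19.7 TPM, others 15.3 to 15.8) and Igfbp4 high in replicate 5 (30.4 TPM, others 19.9 to 20.3). In Con at 4 weeks Igfbp5 was low in replicate 4 (126 TPM, others 191 to 201), and at 6 weeks Igf2 was high in replicate 1 (10.2 TPM, others 6.97 to 7.52).

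The difference between CAC and Con changed over the weeks, by limma's F test, for Igfbp3 (adjusted p = 0.014), Igfbp4 (adjusted p = 0.0267) and Igfbp7 (adjusted p = 0.0124). The difference between CAC and NCAC did so for Igfbp3 (adjusted p = 0.0272), Igfbp4 (adjusted p = 0.0082) and Igfbp7 (adjusted p = 0.0269). Both tests use the same CAC libraries.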

How the results depend on the processing

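For single genes with all libraries kept, 1097 recomputed values stayed on their side of the threshold, 47 lost a call, 25 gained one and 1 called value reversed, Igf2 between CAC and Con at 8 weeks, at -0.0297 (adjusted p = 0.886) after median-ratio scaling. Counting the omissions of 1 library too, 62 values called in neither setting changed sign. Of the 10 genes, those called between CAC and Con numbered 1 at 2 weeks with array weights, against 0, and 2 at 4 weeks with median-ratio scaling, without the mitochondrial genes or with 2 groups fitted alone, against 5. Between CAC and NCAC at 2 weeks they numbered 1 with a filter at 5 TPM, 2 with array weights and 1 with the replicate block, against 0. Between CAC and NCAC at 4 weeks they numbered 2 with no filter, 1 with median-ratio scaling, 2 without the mitochondrial genes and 1 with 2 groups fitted alone, against 4. For the F test of CAC minus Con over weeks array weights gave 6, against 3, and for CAC minus NCAC no filter, median-ratio scaling and leaving out the mitochondrial genes gave 1 each and array weights 6, against 3. The causes were not tested. With 1 library left out, the count between CAC and Con was 0 at 2 weeks, 0 to 5 at 4 weeks, 7 to 9 at 6 weeks and 6 to 8 at 8 weeks. Between CAC and NCAC it was 0 to 3, 0 to 4, 7 to 8 and 6 to 8 at these weeks, for each F test of CAC 2 to 4, and between NCAC and Con and within Con 0. Over all genes, the calls between CAC and Con at 8 weeks numbered 8755, and 5585 after scaling, at 6 weeks 7069 and 3915, and at 4 weeks 3134, with 758 without CAC replicate 2. Same-numbered libraries did not all deviate together (r of -0.299 to 0.295, no comparison with all 5 pairs over 0.1). At 4 weeks 3 of the 5 pairs were over 0.1 for CAC against Con, and 3 for CAC against NCAC. This check cannot decide whether libraries of the same number belong together. The replicate block left 7 genes called between CAC and Con at 8 weeks, against 8. TPM tables hold no read counts, so depth here is an estimate, which was lowest for Igf1.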
